A study of Mus musculus with 18 samples.

Results

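Collagen chain genes were taken as all genes of the deposited table whose symbol is Col followed by a type number, the letter a and a chain number. This rule found 44 of the 30072 genes, and 41 of them reached at least 0.23 CPM (counts scaled to a common library total) in at least 6 mice and were tested, among 15054 genes tested in all. They comprised 11 fibrillar chains, 8 basement membrane chains, 9 network-forming and beaded-filament chains, 9 FACIT chains (fibril-associated collagens with interrupted triple helices) and 7 others, namely the anchoring fibril chain Col7a1, the transmembrane chains and a few less studied members. The chains below the filter were Col6a4, Col9a1 and Col19a1. RNA was sequenced from heart septum of CD-1 mice, an outbred strain, with 6 mice in each of 3 groups. These were unirradiated controls, and mice at 2 weeks and at 6 weeks after a 25 Gy exposure given once under isoflurane (post-IR). Per the study's methods, the beams were targeted by CT and the dose was given to the whole heart. Controls received the anesthetic and no irradiation, and per the study's methods they were imaged by CT like the irradiated mice. All groups held male and female mice of at least 8 weeks of age, with controls matched for litter and sex, although no sex is given for single mice. The sample labels name gamma rays and septum, whereas the study's methods describe X-rays and ventricular tissue. The question addressed here is which collagen chains had changed in RNA level at the 2 times.

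Collagens are secreted proteins built from 3 chains wound into a triple helix. Fibrillar collagens assemble into the fibers that give the myocardial interstitium its tensile strength and that accumulate in scars, whereas type IV collagen forms the sheet-like meshwork of the basement membrane around capillaries, cardiomyocytes and smooth muscle. Types XV and XVIII, the multiplexins, sit at the basement membrane zone and link it to the surrounding matrix. Cardiac fibroblasts are the main source of fibrillar collagen in the heart, while endothelial and mural cells make much of the type IV collagen.

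Rounded counts summed to between 11522979 and 15501002 per mouse, and 3 counts corresponded to 0.194 to 0.26 CPM, a floor that covers counting error only. CPM values below carry TMM scaling (a trimmed mean of log ratios between libraries), with factors of 0.844 to 0.991 for controls, 0.962 to 1.03 for the 2-week and 1.04 to 1.13 for the 6-week mice. Defining markers of heart muscle were abundant in each mouse. The sum of 6 cardiomyocyte markers ran from 28253 to 44556 CPM in controls and from 23446 to 31526 CPM in 6-week mice, and all 6 were lower at that time. All 6 macrophage markers were higher at 6 weeks (median log2 fold change 1.08), with sums of 130.1 to 409 CPM in controls and 365 to 493 CPM at 6 weeks. Of 8 fibroblast markers, 3 were lower at 6 weeks, among them Pdgfra, and with all mice none of the 6 myofibroblast markers was called. Of 8 endothelial markers, 2 were higher and 2 were lower at 6 weeks. Of all genes tested, 13.5% were called higher and 11.5% lower at that time, by the edgeR test described below. No marker of these 5 lists was at 0 in all mice. The part of these cell types in the results below was not tested, and in bulk tissue a change in the number of cells of a type and a change in the RNA each of them holds cannot be told apart.

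Control mouse 4 stood apart from the other controls in its collagen levels. It was the highest control for 20 of the 41 tested chains (48.8%), compared with 21.3% of all genes tested. Its ratio to the mean of the other controls was highest for Col5a2 (3.89), the FACIT chain Col12a1 (3.79), Col1a1 (3.63) and Col3a1 (3.58). Not all fibrillar chains shared this, as Col24a1 (0.80) and Col27a1 (0.74) lay below that mean. In the same mouse the myofibroblast markers summed to 482 CPM (at most 249.8 in the other controls), the macrophage markers to 409 CPM (at most 207) and the atrial markers to 1583 CPM (at most 811), and its cardiomyocyte sum was the lowest of the controls. The counts, class medians and chains below that moved most with this mouse are therefore given with and without it. Marker lists were tested with all mice only. The myofibroblast sum had a median of 152 CPM in controls and 295 CPM at 6 weeks, and whether any of these markers would be called without control mouse 4 was not tested.

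The basement membrane chains Col4a1 and Col4a2 rose at both times, Col18a1 rose at 6 weeks, and the interstitial chains of types I and III were not called when all mice were used. At 2 weeks post-IR, edgeR's quasi-likelihood test with Benjamini-Hochberg adjustment over all tested genes (Padj, called under 0.05) called 3 of the 41 chains, Col4a1, Col4a2 and Col6a1, all higher, where 5.02% of all genes tested were called, 3.09% higher and 1.93% lower. At 6 weeks, 9 chains were called. Col4a1, Col4a2, Col15a1, Col18a1, Col5a3, Col6a1, Col7a1 and Col9a3 were higher and Col6a6 was lower. Across all genes tested, 25.0% were called at 6 weeks, 13.5% higher and 11.5% lower, so the 9 of 41 chains called were close to this background when all mice were used. Between 2 and 6 weeks 5 chains were called, with Col4a1, Col4a2, Col18a1 and Col7a1 higher and Col6a6 lower at 6 weeks, against a background of 5.33% (3.31% higher and 2.01% lower). With an absolute log2 fold change above 1 also required, the chains called numbered 0 at 2 weeks, 6 at 6 weeks and 2 between them, where 0.903%, 5.95% and 1.14% of all genes were. Without control mouse 4 the test called 7 of 41 chains at 2 weeks, where 5.75% of all genes were called, and 14 of 41 at 6 weeks, where 26.2% were, and every chain called with it was called without it. The chains gained were Col1a1, Col3a1, Col5a2 and Col5a3 at 2 weeks, and Col1a1, Col1a2, Col3a1, Col5a2 and Col8a1 at 6 weeks. Leaving out control mouse 3, 5 or 6 or 2-week mouse 1 lowered the count at 2 weeks to 2, through the loss of Col6a1.

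Class medians of the change depended on control mouse 4. With all mice, the median log2 fold change (log2FC) of the 8 basement membrane chains was 0.20 at 2 weeks and 0.38 at 6 weeks. It was 0.34 and 0.25 for the 11 fibrillar chains, 0.37 and 0.12 for the 8 tested network chains, and 0.20 and 0.16 for the 7 tested FACIT chains. For the 7 other chains it was 0.08 and -0.00, and over all genes tested it was -0.00 and -0.02. When control mouse 4 was left out, the fibrillar median was 0.60 at 2 weeks and 0.57 at 6 weeks, above the basement membrane medians of 0.27 and 0.48, and the FACIT medians were 0.38 and 0.41. With all mice, 4 of 8 basement membrane, 1 of 11 fibrillar, 2 of 8 network, 1 of 7 FACIT and 1 of 7 other chains were called at 6 weeks. Of all genes tested 25.0% were called, which is near the share of the network chains. Without that mouse 5 of 11 fibrillar and 3 of 8 network chains were called, where 26.2% of all genes were, and the counts of the other classes were as before. The difference between classes was not tested.

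**Figure D1:**
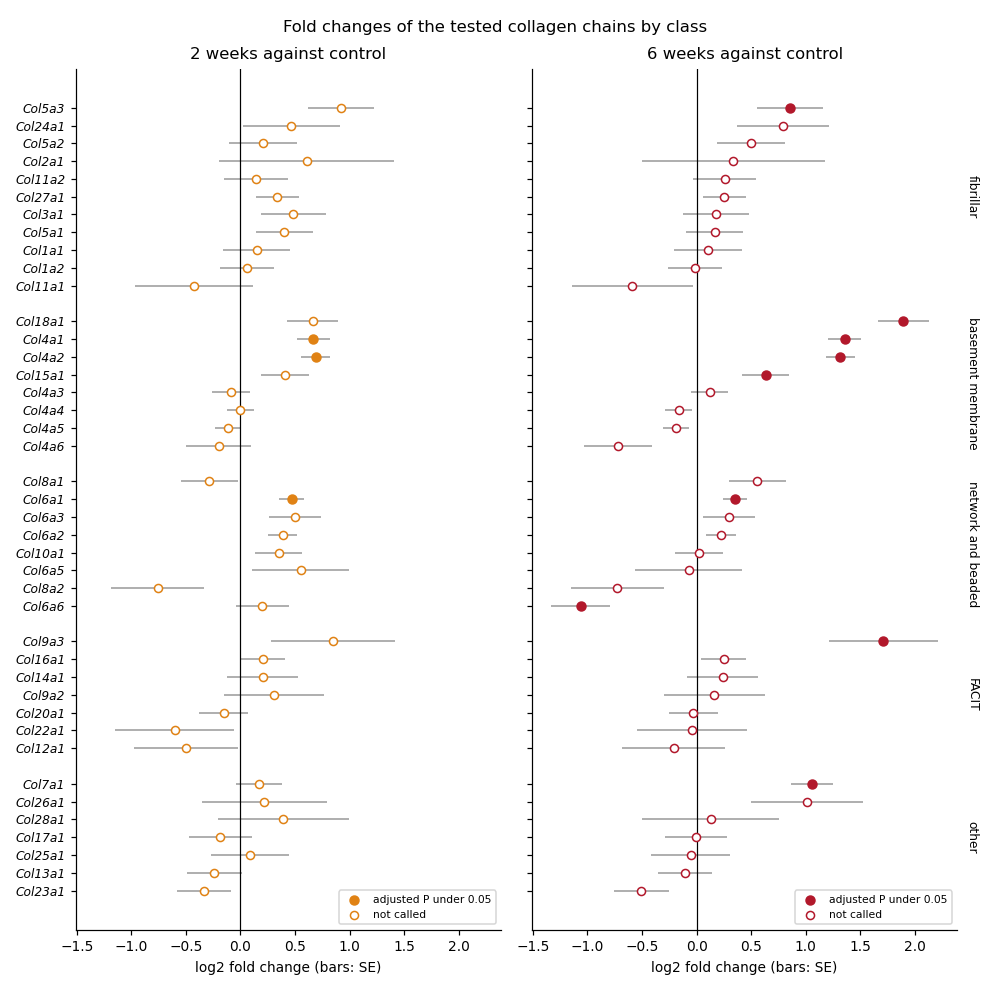
Log2 fold changes against control for the 41 tested collagen chains, at 2 weeks (left) and 6 weeks (right), arranged by class (bars, SE of the edgeR fit; filled points, Padj under 0.05). At 6 weeks Col18a1, Col4a1 and Col4a2 lie farthest to the right in the basement membrane class (1.89, 1.36 and 1.31), while Col1a1, Col1a2 and Col3a1 lie near 0 with wide bars.

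Col4a1 and Col4a2 encode the alpha chains of the ubiquitous type IV heterotrimer, the scaffold of most basement membranes. Col4a1 ranged from 415 to 734 CPM in controls (median 629.9), from 808 to 1181 CPM at 2 weeks (median 973) and from 1198 to 2001 CPM at 6 weeks (median 1507). No 2 groups overlapped, and the levels stepped up from controls to 2 weeks and again to 6 weeks. At week 2 the log2FC against controls was 0.67 (SE 0.151, Padj = 0.0169) and 1.36 at 6 weeks (SE 0.153, Padj = 7.4e-06), a 2.56-fold increase. From 2 to 6 weeks Col4a1 rose by a further 0.69 (SE 0.151, Padj = 0.0167).

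Col4a2 moved alongside it. The level ranged from 368 to 600.0 CPM in controls (median 535), from 721 to 995 CPM at 2 weeks (median 827) and from 1003 to 1628 CPM at 6 weeks (median 1233). Again the 3 groups were separated without overlap, and control mouse 3 was the lowest of the 18 for both chains. Against controls it differed by a log2FC of 0.69 at week 2 (SE 0.131, Padj = 0.0059), and of 1.31 at 6 weeks (SE 0.133, Padj = 2.75e-06). Between the irradiated groups it rose by 0.63 (SE 0.131, Padj = 0.0138). Groups without overlap were found for 2 chains at 2 weeks, where 3.24% of all genes had them (1.96% higher, 1.28% lower). There were 4 such chains at 6 weeks (9.23% of genes, 5.8% higher and 3.43% lower) and 5 between the 2 times (3.54%, 2.27% higher and 1.27% lower). Both chains kept their call in each comparison under all 34 alternative fits, including those without control mouse 4.

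The ratio of Col4a1 to Col4a2, taken on the scale of length-corrected transcript abundance (TPM, which divides by transcript length), stayed near 1.2. It was 1.19 ± 0.096 in controls, 1.18 ± 0.062 in the 2-week group and 1.23 ± 0.027 in the 6-week group (SD, n = 6). In an exact permutation test, two-sided, of the log2 ratio, 6 weeks differed from controls by 0.05 (P = 0.37, Padj = 0.512) and was not called, nor were the other 2 comparisons of this ratio.

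The genes for these chains lie head to head. Col4a1 (ENSMUSG00000031502) spans chr8:11198423-11312826 on the minus strand and Col4a2 (ENSMUSG00000031503) spans chr8:11312805-11449287 on the plus strand (GENCODE M21, GRCm38, as for all positions given with a gene), so that their annotated 5′ ends share 22 bases. These shared bases, and the 71 bases that separate the starts of the equally head-to-head pair Col4a3 and Col4a4 on chromosome 1, are shown because members of each pair start from one stretch of DNA. Sequences are from RefSeq promoter windows (GRCm38.p6), on the plus strand, and capitals mark a GGGCGG motif (a GC box).
Col4a1 and Col4a2, chr8:11312805-11312826: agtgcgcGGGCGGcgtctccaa
Col4a3 and Col4a4, chr1:82586850-82586920: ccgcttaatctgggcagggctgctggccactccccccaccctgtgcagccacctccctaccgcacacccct

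The type IV chains of the minor networks were not called at either time. Col4a3, Col4a4 and Col4a5 form the specialized network known from kidney glomeruli, and Col4a6 pairs with Col4a5 in some smooth muscle. Col4a3 ranged from 9.07 to 20.9 CPM in controls and from 10.5 to 18.7 CPM at 6 weeks, with a log2FC of 0.12 (SE 0.172, Padj = 0.67). Col4a4 gave -0.17 (SE 0.124, Padj = 0.365) and Col4a5 gave -0.19 (SE 0.119, Padj = 0.281). Col4a6 had a median of 5.97 CPM in controls and 3.196 CPM at 6 weeks, and its log2FC of -0.72 missed the threshold (SE 0.314, Padj = 0.104). All 4 overlapped between groups at both times. On the TPM scale their 6-week means were 2.40, 3.33, 12.4 and 0.709, compared with 269 for Col4a1 and 219 for Col4a2.

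Col18a1 (ENSMUSG00000001435, chr10:77052178-77166548, minus strand), a multiplexin whose C-terminal fragment is endostatin, showed the largest fold change of the basement membrane class. It ranged from 10.9 to 29.6 CPM in controls (median 20.4), from 24.4 to 43.2 CPM at 2 weeks (median 30.05) and from 45.1 to 105 CPM at 6 weeks (median 73.1). All 6-week mice lay above all mice of the other groups, while controls and 2-week mice overlapped. The log2FC at 6 weeks was 1.89 (SE 0.236, Padj = 1.75e-05), a 3.72-fold increase, and 1.23 from 2 to 6 weeks (SE 0.229, Padj = 0.00732). At 2 weeks it was 0.66, which did not pass (SE 0.235, Padj = 0.112). Col18a1 overlaps Slc19a1 on the opposite strand over 8825 bases, and whether reads were assigned by strand is not given in the sources used here.

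Col15a1 (ENSMUSG00000028339, chr4:47208161-47313167, plus strand), the other multiplexin, is abundant around capillaries and muscle fibers. It ranged from 145 to 313 CPM in controls (median 204), from 223 to 341 CPM at 2 weeks (median 293) and from 187 to 461 CPM at 6 weeks (median 365). The groups overlapped, with 2 of the 6-week mice inside the control range. Its log2FC was 0.63 at 6 weeks (SE 0.218, Padj = 0.0406) and 0.41 at 2 weeks (SE 0.218, Padj = 0.303). The 6-week call was lost without control mouse 3, 5 or 6, without 6-week mouse 1, 2, 3 or 6, and when the 2 groups were fitted alone, and Padj ranged from 0.00267 to 0.107 over the alternatives.

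The stretches upstream of the first annotated starts of the multiplexin genes are shown because both chains rose at 6 weeks. The Col18a1 stretch held one ATTGG (the CCAAT box on the other strand) and 3 CCGCCC (the GC box on the other strand), given in capitals, and the Col15a1 stretch held none of the motifs searched.
Col18a1, chr10:77166549-77166780, minus strand: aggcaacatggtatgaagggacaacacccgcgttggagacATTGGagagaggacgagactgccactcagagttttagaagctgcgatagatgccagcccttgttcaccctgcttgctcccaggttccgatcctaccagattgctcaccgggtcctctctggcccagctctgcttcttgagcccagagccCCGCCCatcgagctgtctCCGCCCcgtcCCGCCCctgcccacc
Col15a1, chr4:47207762-47208011, plus strand: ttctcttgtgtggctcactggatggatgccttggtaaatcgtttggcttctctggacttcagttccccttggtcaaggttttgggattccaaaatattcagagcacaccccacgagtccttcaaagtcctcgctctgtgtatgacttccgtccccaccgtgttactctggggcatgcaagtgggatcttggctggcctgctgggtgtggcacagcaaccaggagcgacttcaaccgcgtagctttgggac

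Across all collagen genes, 35 of 44 had at least 1 RefSeq window of 250 bases before and 50 bases after a start, 38 windows in all. GGGCGG was found on either strand in 23 of 38 (60.5%) and in 35.7% of all 32851 windows. CCAAT was found in 13 (34.2%, compared with 37.4% of all windows) and TATAAA in 5 (13.2%, compared with 13.6%), each motif being searched on both strands and counted on its own. A match describes the letters only, and these windows were not tested for the binding of any factor.

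**Figure D2:**
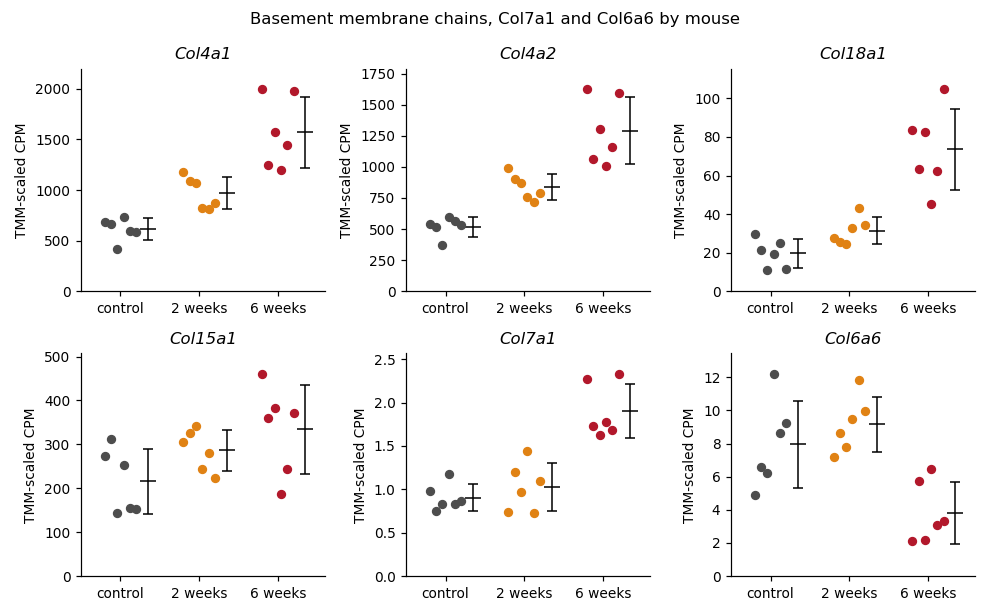
TMM-scaled CPM of Col4a1, Col4a2, Col18a1, Col15a1, Col7a1 and Col6a6 in each of the 18 mice (points), with the mean and SD of each group of 6. Groups do not overlap at any time for Col4a1 and Col4a2, whereas Col15a1 overlaps and Col6a6 is lower at 6 weeks (2.15 to 6.45 CPM) than at 2 weeks (7.19 to 11.8 CPM).

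The fibrillar chains Col1a1, Col1a2 and Col3a1, which make up most interstitial collagen, were not called at either time when all mice were used. Col1a1 and Col1a2 form type I collagen, the stiff fiber of scar, and Col3a1 forms the finer type III fiber. Col1a1 (ENSMUSG00000001506, chr11:94936224-94953042, plus strand) ranged from 170.3 to 899 CPM in controls (median 269), from 354 to 431 CPM at 2 weeks (median 402) and from 232 to 574 CPM at 6 weeks (median 378). Each 2-week mouse lay above 5 of the controls and below control mouse 4, which was at 899 CPM where the next control was at 326 CPM. The fitted log2FC was 0.15 at week 2 (SE 0.310, Padj = 0.84) and 0.10 at 6 weeks (SE 0.310, Padj = 0.85). Without control mouse 4 it was 0.67 (SE 0.189, Padj = 0.0437) and 0.63 (SE 0.189, Padj = 0.0196).

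Col1a2 (ENSMUSG00000029661, chr6:4504814-4541544, plus strand) gave a similar picture. Its range was 186 to 784 CPM in controls (median 297), 333 to 419 CPM at 2 weeks (median 356) and 259 to 430.1 CPM at 6 weeks (median 344), and the next control after mouse 4 was at 309 CPM. With all mice the log2FC was 0.06 at 2 weeks and -0.02 at 6 weeks (SE 0.249, Padj = 0.925 and 0.973), and the direction at 6 weeks turned under 7 alternatives that used all mice. With that mouse left out the changes were 0.47 (Padj = 0.0543) and 0.39 (Padj = 0.0437).

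Col3a1 (ENSMUSG00000026043, chr1:45311538-45349706, plus strand) ranged from 221 to 1094 CPM in controls (median 323), from 549.7 to 686 CPM at 2 weeks (median 608) and from 348 to 686 CPM at 6 weeks (median 460.3). All 2-week mice exceeded 393 CPM, the highest level of the controls other than mouse 4. At week 2 the log2FC against controls was 0.49 (SE 0.299, Padj = 0.383) and 0.18 at 6 weeks (SE 0.298, Padj = 0.718). Without control mouse 4 it was 1.0 (SE 0.171, Padj = 0.00295) and 0.69 (SE 0.170, Padj = 0.00554). From 2 to 6 weeks none of the 11 fibrillar chains was called, with or without this mouse.

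**Figure D3:**
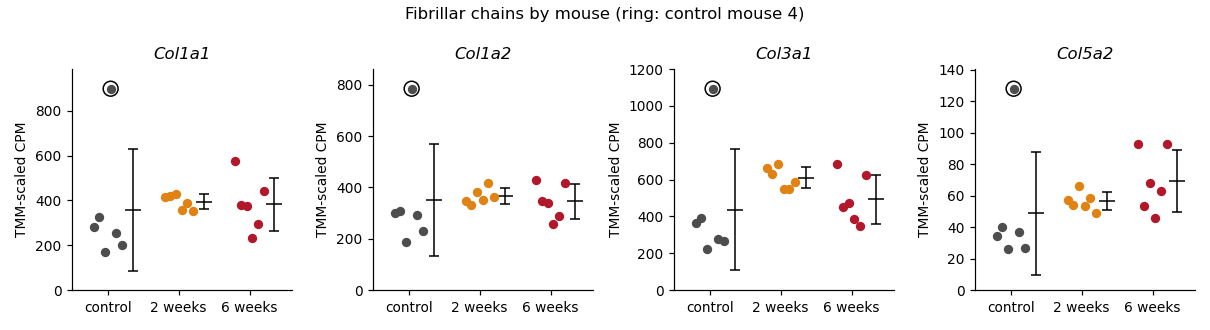
TMM-scaled CPM of Col1a1, Col1a2, Col3a1 and Col5a2 in each mouse (points), with the mean and SD of each group of 6 and a ring around control mouse 4. The ringed mouse is at 899, 784, 1094 and 128 CPM, above every other control and every irradiated mouse for these chains.

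Type V chains nucleate and size the heterotypic fibrils. Col5a3 (ENSMUSG00000004098, chr9:20770050-20815067, minus strand), a minor chain of this type, ranged from 8.14 to 36.6 CPM in controls (median 18.9), from 23.4 to 62.6 CPM at 2 weeks (median 35.97) and from 26.3 to 54.2 CPM at 6 weeks (median 32.1). Of the controls, mouse 4 (36.6 CPM) lay inside both irradiated ranges and mouse 6 (23.5 CPM) just reached the lowest 2-week mouse. Its log2FC was 0.85 at 6 weeks (SE 0.304, Padj = 0.0464) and 0.92 at 2 weeks (SE 0.304, Padj = 0.0863). The 6-week call was the least stable of all, being lost under 15 of 34 alternatives, with Padj between 0.00344 and 0.12. These were the fits without a filter, with Y-linked expression or the replicate block as a term, without control mouse 1, 2, 3, 5 or 6, without 2-week mouse 2, 3 or 6 and without 6-week mouse 1, 3, 5 or 6. Without control mouse 4, Col5a3 was called at both times (1.19 at 2 weeks, Padj = 0.0244, and 1.12 at 6 weeks, Padj = 0.0085).

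Col5a2 was between 26.2 and 40.4 CPM in 5 controls and between 45.7 and 92.9 CPM at 6 weeks. Control mouse 4 was at 128 CPM, and with it the log2FC of 0.50 was not called (SE 0.313, Padj = 0.268). Without that mouse it was 1.07 (SE 0.172, Padj = 0.000202). Col5a1 gave 0.40 at 2 weeks and 0.17 at 6 weeks (Padj = 0.411 and 0.695), and 0.60 and 0.37 without that mouse (Padj = 0.173 and 0.313). The remaining fibrillar chains, Col2a1, Col11a1, Col11a2, Col24a1 and Col27a1, most of which are best known from cartilage and bone, lay between -0.59 and 0.79 at 6 weeks without a call. Col2a1, the main cartilage chain, was at or below 0.555 CPM in every 6-week mouse.

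Type VI collagen forms beaded microfilaments that anchor cells next to the basement membrane. Col6a1 (ENSMUSG00000001119, chr10:76708792-76726168, minus strand) ranged from 119 to 199 CPM in controls (median 144), from 179.9 to 229.8 CPM at 2 weeks (median 216) and from 161 to 221 CPM at 6 weeks (median 201). The irradiated groups lay mostly above the controls, with overlap at both times. Against controls it differed by a log2FC of 0.47 at week 2 (SE 0.114, Padj = 0.0234) and 0.35 at 6 weeks (SE 0.114, Padj = 0.0299). Between the irradiated groups the log2FC was -0.12 (Padj = 0.607). The 2-week call was lost without control mouse 3, 5 or 6 or 2-week mouse 1 (Padj between 0.00353 and 0.0558 over the alternatives). At 6 weeks it was lost without control mouse 3, 5 or 6, without 6-week mouse 2, 3 or 6, and with the 2 groups fitted alone (0.000378 to 0.0715).

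The partner chains of Col6a1 gave values of the same sign that were not called. Col6a2 was at 0.39 at 2 weeks (SE 0.136, Padj = 0.109) and 0.22 at 6 weeks (SE 0.136, Padj = 0.252). Col6a3 was at 0.50 (SE 0.238, Padj = 0.247) and 0.29 (SE 0.238, Padj = 0.406). The TPM ratio of Col6a1 to Col6a2 was 1.01 ± 0.103 in controls, 1.06 ± 0.039 in the 2-week group and 1.09 ± 0.115 in the 6-week group (SD, n = 6), with no called difference.

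Col6a6 (ENSMUSG00000043719, chr9:105687809-105828160, minus strand), an alternative chain of type VI that can take the place of Col6a3, was the only chain called lower. It ranged from 4.88 to 12.2 CPM in controls (median 7.60), from 7.19 to 11.8 CPM at 2 weeks (median 9.07) and from 2.15 to 6.45 CPM at 6 weeks (median 3.18). At 6 weeks all mice were below all 2-week mice, and they overlapped the lower controls. The log2FC was -1.06 against controls (SE 0.268, Padj = 0.00657) and -1.26 against 2 weeks (SE 0.263, Padj = 0.0134). On the TPM scale Col6a6 was 0.931 ± 0.371 (SD, n = 6) in controls, 1.24 ± 0.272 in 2-week and 0.640 ± 0.299 in 6-week mice, and the difference from controls was not called there (Padj up to 0.139), while the difference from 2 weeks was.

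Of the other network chains, Col8a1, a short-chain collagen made by vascular cells, ranged from 30.5 to 114 CPM in controls, from 39.6 to 60.2 CPM at 2 weeks and from 51.2 to 117 CPM at 6 weeks. Its log2FC of 0.56 at 6 weeks was not called (SE 0.258, Padj = 0.126), nor was the difference of 0.84 from 2 weeks (SE 0.259, Padj = 0.0643). Control mouse 4 was again the highest control, and without it both were called, with 0.83 against controls (Padj = 0.0109). Its partner Col8a2 gave -0.73 at 6 weeks (SE 0.425, Padj = 0.234). Col6a5 and Col10a1, the latter a chain of hypertrophic cartilage, stayed at or below 3.48 CPM in all mice and were not called. Col6a4, below the filter, had 0 counts in all 6 controls, 0 to 3 counts at 2 weeks and 1 to 5 counts at 6 weeks.

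FACIT chains decorate the surface of fibrils, and Col9a3 (ENSMUSG00000027570, chr2:180597790-180622189, plus strand) was the only one called. It had 0 to 4 counts in controls, 1 to 9 at 2 weeks and 2 to 15 at 6 weeks, which corresponds to medians of 0.227, 0.416 and 0.835 CPM. The groups overlapped, and the control level was near that of 3 counts. The fitted log2FC was 1.71 at week 6 (SE 0.499, Padj = 0.0154) and 0.85 at 2 weeks (SE 0.565, Padj = 0.422). The 6-week call was lost under both limma voom fits, one of which weighted samples by quality (Padj up to 0.0782), and Col9a3 overlaps Tcfl5 on the opposite strand over 234 bases. The more abundant FACIT chains Col14a1, Col16a1 and Col12a1 had median levels of 63.3, 13.1 and 10.7 CPM at 6 weeks, with log2FC values of 0.24, 0.25 and -0.21 that were not called. Control mouse 4 was the highest control for each of them, and without it these became 0.42, 0.45 and 0.34, so that the direction of Col12a1 turned, and none was called (Padj = 0.396, 0.0857 and 0.612). Chondrocyte markers were tested for 2 of 5 genes, and neither was called.

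Col7a1 (ENSMUSG00000025650, chr9:108953586-108984875, plus strand) encodes the anchoring fibril collagen best known from skin. It ranged from 0.750 to 1.18 CPM in controls (median 0.848), from 0.729 to 1.44 CPM at 2 weeks (median 1.04) and from 1.63 to 2.33 CPM at 6 weeks (median 1.76). All 6-week mice lay above all others, and the level was low in every mouse. At week 6 the log2FC against controls was 1.06 (SE 0.191, Padj = 0.000542) and 0.89 from 2 weeks (SE 0.183, Padj = 0.0126). On the TPM scale the groups overlapped, with 0.183 ± 0.141 in controls and 0.236 ± 0.0467 at 6 weeks, and neither comparison was called there (Padj up to 0.436 and 0.614). The other 6 chains of this class were not called. Among them Col26a1 had the highest log2FC at 6 weeks (1.01, SE 0.516, Padj = 0.169) and Col23a1 the lowest (-0.51, SE 0.251, Padj = 0.156).

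Ratios between chains were compared for 6 pairs in 3 comparisons with exact permutation tests of log2 TPM ratios, two-sided, with P adjusted over the 18 tests. Each pair held chains of the same collagen type, except Col1a1 and Col3a1, which belong to types I and III. A P of 0.00216 is the smallest that 6 mice against 6 allow, and 2 tests were called. The ratio of Col1a1 to Col3a1 was 0.576 to 0.734 in controls and 0.493 to 0.561 at 2 weeks, without overlap, a difference of -0.32 on the log2 scale (exact P = 0.00216, Padj = 0.0195). At 6 weeks it was 0.491 to 0.679 and overlapped both. The ratio of Col5a1 to Col5a2 was 1.14 to 1.58 at 2 weeks and 0.568 to 1.07 at 6 weeks, a difference of -0.56 (exact P = 0.00216, Padj = 0.0195). Both calls were lost when any one of the 2-week mice was left out (Padj of 0.0584 to 0.0779) and when medians were permuted. The differences themselves stayed between -0.36 and -0.29 for Col1a1 to Col3a1 and between -0.62 and -0.44 for Col5a1 to Col5a2 as any mouse was left out. Without control mouse 4 or 6-week mouse 4 the number called was 3. The ratio of Col8a1 to Col8a2 had a median of 16.1 in controls and 67.3 at 6 weeks, with a wide spread and no call (difference 1.49, Padj = 0.109).

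Summed over all 44 chains, collagen accounted for 0.291% of counts in the median control (0.190 to 0.537%), 0.454% at 2 weeks (0.415 to 0.530%) and 0.588% at 6 weeks (0.427 to 0.812%). On the TPM scale the sums were 343 to 1089 in controls, 804 to 1046 at 2 weeks and 790.3 to 1549 at 6 weeks. Control mouse 4 had the highest control sum, 1089 TPM, where the other controls were at most at 672 TPM. Basement membrane chains held 24.7 to 42.6% of collagen TPM in controls (median 39.2%), 38.2 to 41.6% at 2 weeks (median 40.3%) and 48.0 to 54.0% at 6 weeks (median 52.3%), so that all 6-week mice lay above all others. Fibrillar chains held 34.7 to 60.2% in controls (median 36.4%), 37.6 to 42.0% at 2 weeks (median 39.4%) and 28.7 to 33.2% at 6 weeks (median 30.7%). On the TPM scale this lower share at 6 weeks was not a lower sum. The fibrillar sum itself had a median of 199 TPM in controls, 347 TPM at 2 weeks and 345 TPM at 6 weeks. The basement membrane sum went from 206 to 344 and 571 TPM. Percent of counts and TPM carry no TMM scaling, and on both scales the median of all genes tested also shifted up. The shift at 2 and 6 weeks was 0.15 and 0.24 in log2 with library size only, and 0.24 and 0.37 with log2(TPM + 0.1). The sums were not corrected for it. Control mouse 4 set the extreme of both shares in controls, and the other controls held 37.5 to 42.6% in basement membrane and 34.7 to 38.2% in fibrillar chains. No P value is given for these sums, since the members were chosen with results of these data known.

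In the order of levels per length, Col4a1, Col1a2, Col4a2 and Col3a1 led the controls with median TPM of 79.0, 74.1, 67.4 and 61.1, values that lie within the spread of one another. At 6 weeks Col4a1 (251) and Col4a2 (202) led, followed by Col3a1 (117), Col1a2 (113) and Col15a1 (89.5), and the last 3 overlapped. Every 6-week mouse had more Col4a1 TPM (at least 189) than the highest 6-week level of Col3a1 (176). Col18a1 moved by its mean TPM from rank 16 of 44 in controls to rank 11 at 6 weeks.

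**Figure D4:**
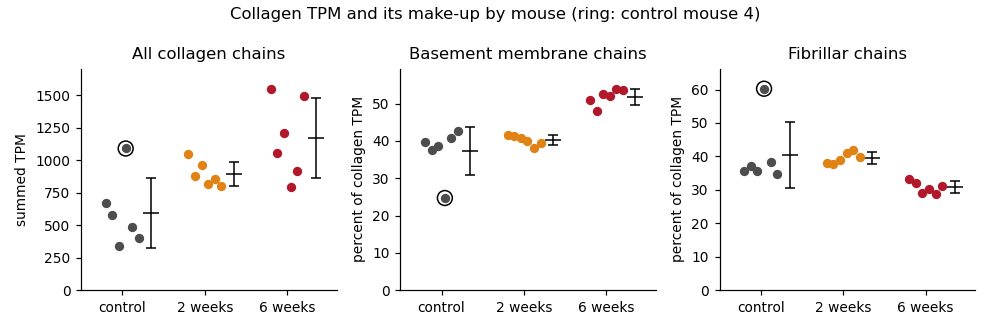
Summed TPM of all 44 collagen chains (left) and the percent of it held by basement membrane chains (middle) and fibrillar chains (right), for each mouse (points), with the mean and SD of each group of 6 and a ring around control mouse 4. At 6 weeks the basement membrane share is 48.0 to 54.0% and the fibrillar share 28.7 to 33.2%, each outside the range of the other groups, while the median fibrillar sum was 347 TPM at 2 weeks and 345 TPM at 6 weeks.

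Genes that act on collagen outside the chain genes were examined as 4 lists, with all mice only. Control mouse 4 had the highest control sum for processing (1395 CPM, at most 1081 in the others), receptors (629 CPM, at most 538) and degradation (56.4 CPM, at most 39.7). For the basement membrane partners it was at 3522 CPM, where the highest other control was at 4400 CPM. The other basement membrane components (14 of 15 tested) included 6 called higher and 2 called lower at 6 weeks, with a median log2FC of 0.20, where 13.5% of all genes were called higher and 11.5% lower. Nid2, a nidogen that bridges laminin and type IV collagen, rose from 38.4 ± 7.9 CPM in controls to 108 ± 26 CPM at 6 weeks (SD, n = 6), with a log2FC of 1.49 (SE 0.156, Padj = 3.43e-06). Lama4, the laminin alpha chain of vessels, rose by 0.72 (SE 0.0889, Padj = 1.69e-05), Lamb1 by 0.63 and Lamc1 by 0.43. Both Nid2 and Lama4 were also called at 2 weeks, at 0.95 and 0.47, and their 6-week mice lay above all controls. They were the 2 of 14 partners called at 2 weeks, where 3.09% of all genes were called higher. The laminin chains Lama2 (-0.21) and Lamb3 (-0.47) were the 2 called lower.

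Collagen-cleaving proteases showed the highest median of the 4 lists. Of 5 tested, 4 were higher at 6 weeks (median 0.74), where 13.5% of all genes were. Mmp13, an interstitial collagenase, rose by 1.91 from 0.515 ± 0.304 CPM in controls to 2.05 ± 0.766 CPM (SE 0.340, Padj = 0.000488). Mmp2, a gelatinase, rose by 0.70 (Padj = 0.00161), cathepsin K (Ctsk) by 1.51 (Padj = 0.0384) and the membrane-bound Mmp14 by 0.74 (Padj = 0.045). At 2 weeks Mmp2 alone of the 5 was called, at 0.52, where 3.09% of all genes were called higher.

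Of 30 tested genes of collagen processing (hydroxylation, folding, trimming and cross-linking), 8 were higher and 3 lower at 6 weeks, with a median of 0.19. Of all genes 13.5% were called higher and 11.5% lower, so the number lower was close to the background. Plod3, a lysyl hydroxylase and glycosyltransferase that type IV collagen needs, rose by 0.40 (SE 0.077, Padj = 0.000948), and its 6-week mice lay above all controls. Serpinh1, the collagen chaperone of the endoplasmic reticulum, rose by 0.57 (SE 0.130, Padj = 0.00328) and the cross-linking oxidase Loxl4 by 0.89 (Padj = 0.00815). Adamts3, a procollagen N-propeptidase, fell by 0.62 (SE 0.165, Padj = 0.00919). At 2 weeks 1 gene of this list was called, Pcolce at 0.45, an enhancer of C-propeptide removal. Of all genes 3.09% were called higher at that time, so 1 of 30 was close to the background.

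Among collagen receptors, 3 of 9 tested were higher at 6 weeks and none was lower (median 0.23), where 13.5% of all genes were called higher and 11.5% lower. Itga2, the collagen-binding integrin alpha chain, rose by 1.73 (SE 0.278, Padj = 0.000202) from a low level of 0.964 ± 0.425 CPM in controls. Lair1, an inhibitory receptor of immune cells, rose by 1.73 (SE 0.324, Padj = 0.000727), alongside the macrophage markers described above. Itgb1, the beta chain shared by collagen-binding integrins, rose by 0.33 (SE 0.0882, Padj = 0.0104). Between 2 and 6 weeks Nid2, Mmp13 and Lair1 were the genes of the 4 lists that were called, all higher at 6 weeks. They were 1 of 14 partners, 1 of 5 proteases and 1 of 9 receptors tested, and 0 of 30 processing genes were called. Of all genes tested 5.33% were called, 3.31% higher, so with lists of this size these counts were close to the background.

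**Figure D5:**
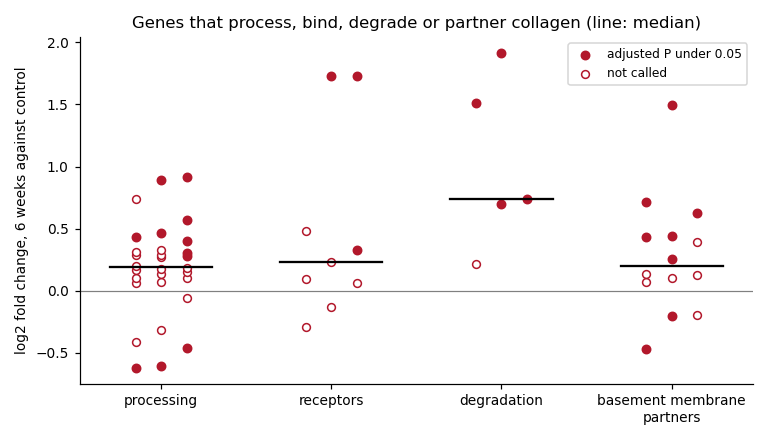
Log2 fold changes at 6 weeks against control for tested genes that process, bind, degrade or partner collagen (points; filled, Padj under 0.05) with the median of each list (line). The medians are 0.19, 0.23, 0.74 and 0.20, and Mmp13 is the highest point at 1.91.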

How the data were processed

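RNA from the septum of 18 CD-1 mice (6 controls, 6 at 2 weeks and 6 at 6 weeks post-IR) was sequenced by the authors, who used STAR for alignment, Salmon for transcript abundance and tximport for gene-level values. Per the labels, CASAVA 1.8 and Salmon 1.0 were used with GRCm38. The authors deposited estimated counts per Ensembl gene (expected counts, not whole, not normalized between mice) and TPM from the same quantification, which corrects for the effective transcript length in each mouse. A transcript mix that changes its mean length therefore moves counts and TPM differently. Every value column belonged to a sample (0 did not).

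The tests used R 4.3.3 and edgeR 4.0.16 on rounded counts. A gene entered when 6 or more mice reached 0.23 CPM, TMM factors set the scaling, one quasi-likelihood model held the 3 groups, and all tests were two-sided with Benjamini-Hochberg adjustment within each comparison over 15054 genes. Calls are at an adjusted P under 0.05. The SE is the absolute log2 fold change divided by the square root of F. P values reflect the spread between mice. Precision is limited by counting for Col6a4, Col9a3 and other chains near the floor of 3 counts, at a depth of 11522979 to 15501002 counts. Symbols and coordinates came from GENCODE M21 (GRCm38) and were found for 29301 genes, and 771 had none. Promoter sequences came from a RefSeq table (GRCm38.p6).

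Every collagen chain was accounted for, and those called in any comparison plus Col1a1, Col1a2, Col3a1, Col4a1, Col4a2, Col6a1 and Col15a1 were described in full. From each other list the number called and up to 4 genes with the smallest adjusted P at 6 weeks were named. Pcolce, Lama2, Lamb3 and uncalled chains given with values fall outside this rule and were chosen after their values were seen. The members and the lists were chosen with earlier results of these data known. Alternatives used DESeq2 1.42.0, limma 3.58.1 (voom, voom with sample weights, and TPM with pseudocounts 1 and 0.1), other scalings, filters and thresholds, a Y-linked covariate, the replicate block, only the 2 groups compared, and leaving out each mouse in turn. Ratios between chains were tested by exact permutation of 924 splits, with P adjusted over 18 tests. The strand setting of the counting is not given in the sources used here. The code was tested on simulated data.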

Additional observations from a re-analysis of the deposited data

Results flagged for a closer look

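Of 54 sets of 6 values examined for a mouse far from the rest of its group, a share of about 1 in 20 is picked by chance. In controls, mouse 4 was picked as far above the other controls for Col1a1 (898.74 CPM), Col1a2 (784.26 CPM) and Col3a1 (1093.7 CPM), and mouse 3 as far below them for Col4a2 (368.3 CPM). The 3 fibrillar values come from the same library and are not separate events.

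The change against controls differed between 6 and 2 weeks, by edgeR's test of the difference, for Col18a1 (log2 difference 1.23), Col7a1 (0.89), Col4a1 (0.69), Col4a2 (0.63) and Col6a6 (-1.26). These comparisons share their controls, which cancel in the difference.

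Col6a4, a beaded-filament chain below the filter on low counts, had 0 counts in every control mouse, 2, 3 and 2 counts in 3 of the 2-week mice, and between 1 and 5 counts in every 6-week mouse. A gene at 0 counts is compatible with up to 3 counts per library, so most of these values lie near the floor. With no filter it was called at 6 weeks.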

How the results depend on the processing

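Col4a1 and Col4a2 in all comparisons, Col18a1 at 6 weeks in both comparisons and Col6a6 between 2 and 6 weeks kept direction and call under all 34 alternatives, and no called chain changed direction. The number of called chains at 2 weeks (3) became 6 with library size only, 7 with log2(TPM + 1) and 8 with log2(TPM + 0.1). Those fits called 11.9%, 18.7% and 20.1% of all genes tested, where the main fit called 5.02%. The number became 0 when an absolute log2 fold change above 1 was also required (0.903% of all genes). It ranged from 2 to 7 as mice were left out. At 6 weeks (9) it became 14 with log2(TPM + 0.1), where 49.6% of all genes were called and 25.0% in the main fit, and ranged from 6 to 14. Between 2 and 6 weeks (5) it became 2 with the fold threshold (1.14% of all genes) and ranged from 5 to 6. Library size only shifted the median of all genes by 0.15 at 2 weeks and 0.24 at 6 weeks, and log2(TPM + 0.1) by 0.24 and 0.37. The part of this shift in the added calls was not tested. The called ratios between chains (2) became 0 with medians and ranged from 0 to 3.

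Col1a2 at 6 weeks (-0.02) turned to 0.13 with voom, 0.22 with sample weights, 0.23 with library size only, 0.54 with either TPM pseudocount, 0.016 with the Y-linked covariate and 0.10 with the replicate block, and ranged from -0.14 to 0.39 as mice were left out. The ranges were -0.068 to 0.47 for Col1a2 at 2 weeks and -0.048 to 0.63 for Col1a1 at 6 weeks, none of which was called with all mice.

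Replicate numbers did not pair the mice: same-numbered mice correlated at -0.0828 to 0.106 (median 0.0333, other pairs -0.0154) and 3 of 18 correlated best with their own number. The replicate block gave 3, 8 and 5 called chains, losing Col5a3 at 6 weeks, where 3.89%, 23.6% and 3.6% of all genes were called. Col9a3 could not be tested with the literal or the 1 CPM filter.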

Other observations

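Markers of further cell types that the septum could hold were examined as well. At 6 weeks against controls, edgeR called 1 of 8 mural markers and 1 of 4 epicardial markers higher, 1 of 5 tested Schwann cell markers and 1 of 4 tested red blood cell markers lower, and 0 of 4 atrial markers. Of all genes tested 13.5% were called higher and 11.5% lower, which with lists of this size is close to these counts. The markers called were Cspg4, Wt1, Kcna1 and Hba-a1, which were named because so few passed. Atrial markers summed to between 233 and 1583 CPM in controls, 161 and 1247 CPM at 2 weeks, and 73.1 and 696 CPM at 6 weeks, a spread within groups that exceeds the differences between their medians (337, 332 and 387 CPM). Endothelial markers summed to 865 to 1065 CPM in controls and 1038 to 1391 CPM at 6 weeks, with Pecam1 and Cdh5 higher (0.90 and 0.53 on the log2 scale) and Tie1 and Tek lower (-0.44 and -0.75). Their part in the collagen results was not tested.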
